A study of Mus musculus with 6 samples.

Results

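The genes described here are 36 genes of homologous recombination, of the Fanconi pathway and of the DNA damage checkpoint, measured in THY1-positive spermatogonia of Ddx20 knockout mice and of control littermates. They were chosen by name, with earlier results of these data known, and without the genes used in meiosis alone. Shares of members set beside all tested genes are therefore descriptions. Each member matched 1 row of the count table, so that 36 of 22579 listed genes are members. The groups were Ddx20 knockout at day 4 (labelled cKO, 3 libraries) and control at day 4 (3 libraries), each library made from about 1000 cells sorted on THY1, a surface protein of undifferentiated spermatogonia. DDX20 is a DEAD-box RNA helicase that works with the SMN protein in building spliceosomal particles. Neither the Cre driver, nor the deleted exons, nor the alleles carried by the controls, nor the number of animals behind a library are given in the labels.

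Homologous recombination repairs broken DNA from an intact copy. The MRE11-RAD50-NBN complex with CtIP (the product of Rbbp8) trims the ends, BRCA1 with BARD1, PALB2 and BRCA2 prepares the ends for pairing with the intact copy, the XRCC2 and XRCC3 complexes assist them, and BLM and other helicases take the joined molecules apart. The Fanconi pathway unhooks crosslinks between the strands: a core complex with the ubiquitin ligase FANCL modifies FANCD2 and FANCI. ATM and ATR signal damage and stalled forks to CHEK2 and CHEK1. In germ cells these genes act both in dividing spermatogonia and later in meiosis.

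Ddx20 itself held 11.9, 15.2 and 10.7 CPM in the knockouts and 63.8, 36.4 and 40.7 CPM in the controls. The groups did not overlap, and reads from exons outside the deleted part would still count. CPM are counts scaled to each library's total, corrected for library composition with TMM factors, and values are given for libraries 1, 2 and 3 in that order. Total counts ran from 11656130 to 12497967 in the knockouts and from 8428871 to 11893287 in the controls. The germ cell markers Dazl and Ddx4 were abundant in every library, while Thy1 had 64 to 79 reads in the knockouts and 73 to 143 in the controls. Knockout 1 and knockout 2 were nearly alike, with a mean chi-square per gene of 1.78 where sampling noise gives 1 and the other 14 pairs of libraries gave 11.96 to 104. They were entered as separate libraries, and counts with the pair entered as 1 library stand beside the main result. Whether each library came from its own animal is not in the labels, and p-values therefore reflect library-to-library spread, which may be technical.

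Most of the repair and checkpoint genes stood lower in the knockouts. Brca1, Bard1, Blm and Topbp1 fell, no member rose, and 32 did not pass edgeR's quasi-likelihood test, in which a gene passed with an adjusted p under 0.05 (Benjamini-Hochberg, 14766 genes). All 36 members passed the filter on low counts. The 4 called members are 11.1% of the 36, beside 2.8% of all tested genes called lower, 2.03% called higher and 4.83% called in either direction. At an unadjusted p under 0.05, 12 members were lower (12.8% of all tested genes were) and Fancl was higher (11.3% of all tested genes were). The log2 fold change was below 0 in 31 members (86.1%, against 49.7% of all tested genes). Its median was −0.37, beside 0.01 over all tested genes and −0.12 over the 9781 genes whose control mean lay within the members' range of 3.49 to 128 CPM. In that range 3.44% of genes were called lower. Every member was detected in every library, with 17 to 1561 reads, and 34 members had at least 20 reads in each.

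The calls did not hold in every setting. By edgeR no member was called with knockout 1 and 2 entered as 1 library, nor without knockout 1, without knockout 2 or without knockout 3, where 9 members had an unadjusted p under 0.05 and a negative log2 fold change, as had 1158 to 1869 of the 15385 to 15438 genes tested. In these fits 1 to 10 of all tested genes were called in either direction. Without control 2 only Brca1 was called, where 0.45% of all tested genes were lower. With the pair as 1 library DESeq2 called Brca1, Bard1 and Blm, where 1.68% of all tested genes were lower. In that setting limma-voom called Brca1 and Bard1, where 1.29% of all tested genes were lower. Scaled by library size alone, 9 members were lower and none higher, beside 7.8% of all tested genes lower. Rad52, Wrn and Fancg turned to negative values. Of all calls 83.6% were then lower, against 57.9% with TMM, as the median of all tested genes moved to −0.26. On all 6 libraries DESeq2 called 7 members lower and 1 higher, and limma-voom 9 lower and 1 higher, while 5.74% of all tested genes were lower by DESeq2 and 11.3% by limma-voom.

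**Figure D1:**
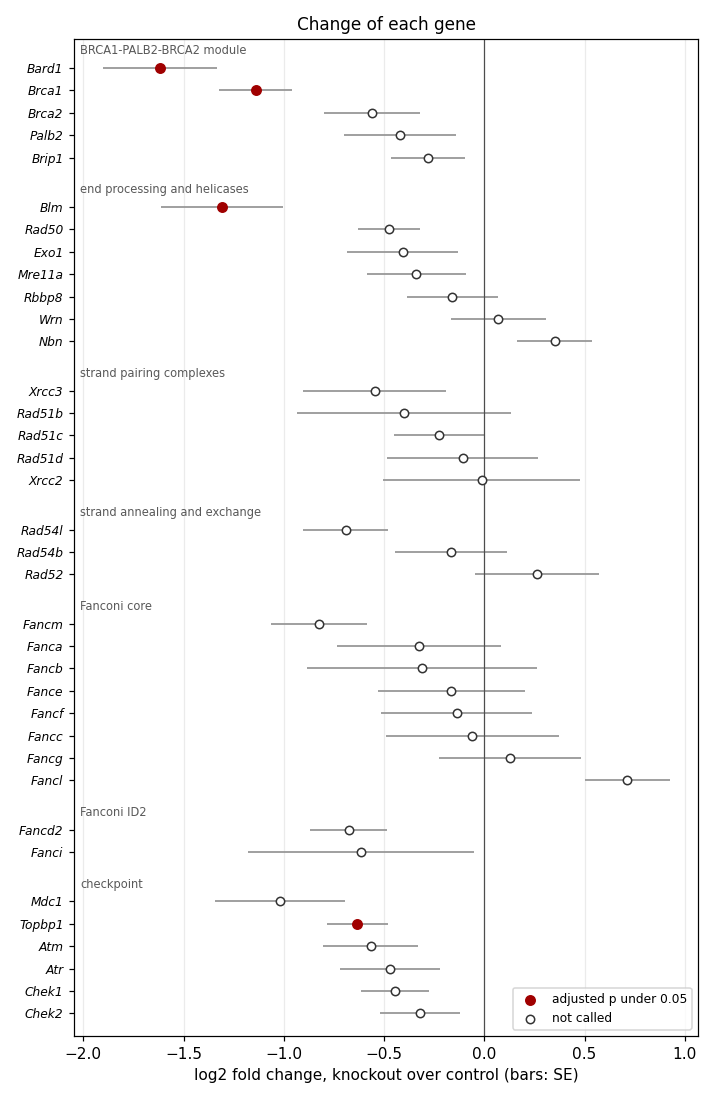
Log2 fold change of knockout over control for each of the 36 genes, grouped by role; points are edgeR estimates, bars 1 SE, filled points have an adjusted p under 0.05. Bard1, Blm, Brca1 and Topbp1 are filled and left of 0, and Fancl is the gene farthest to the right at 0.71.

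Per kilobase of exon, the highest members were Rad50, Nbn, Fancl and Chek1 in the knockouts, at 17.2 ± 0.866, 17.1 ± 1.10, 15.8 ± 0.841 and 13.6 ± 0.286 CPM per kb (SD, n = 3). In the controls the same 4 genes led in the order Rad50, Chek1, Nbn and Fancl, at 23.9 ± 3.42, 18.5 ± 3.47, 13.4 ± 2.24 and 9.65 ± 2.52 CPM per kb (SD, n = 3). Rad50 and Nbn, and Nbn and Fancl, in the knockouts, and each neighbouring pair of the 4 in the controls, differed by less than the sum of their SDs. In this order of level per kilobase Brca1 ranked 18 in the knockouts and 11 in the controls, Bard1 28 and 15, and Blm 26 and 18.

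The BRCA1 group held 2 of the 4 calls. BRCA1 and BARD1 form the ubiquitin ligase that starts recombination at resected ends. Brca1 (ENSMUSG00000017146, chromosome 11, 101488764 to 101551955 of mm10, minus strand) had 221, 218 and 246 reads in the knockouts and 528, 502 and 518 reads in the controls. The groups did not overlap, and the libraries within each were close to each other. The mean level was 20.8 ± 1.21 CPM in the knockouts and 45.9 ± 5.57 CPM in the controls (SD, n = 3 each), which is 2.21-fold lower, with a log2 fold change of −1.14 ± 0.18 (SE) and an edgeR adjusted p of 0.0146.

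Its partner Bard1 (ENSMUSG00000026196, chromosome 1, 71027498 to 71103146, minus strand) fell further. It had 71, 68 and 127 reads in the knockouts and 279, 265 and 295 in the controls, so the groups did not overlap, and knockout 3 stood apart from the nearly alike pair. The mean was 8.07 ± 2.92 CPM in the knockouts and 24.8 ± 2.04 CPM in the controls (SD, n = 3 each), 3.07-fold lower, with a log2 fold change of −1.62 ± 0.29 (SE) and an edgeR adjusted p of 0.0204. Per kilobase of exon, Bard1 stood at 0.484, 0.470 and 0.778 of the level of Brca1 in the knockouts and at 0.797, 0.796 and 0.859 in the controls. The ratio of these levels in knockout 3 was thus close to those of the controls, and no test was made of it.

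The other 3 genes of the group did not pass. Brca2, whose product acts at the resected ends, had 38.1, 38.5 and 35.2 CPM in the knockouts and 77.8, 47.7 and 39.2 CPM in the controls. The groups did not overlap, but the controls spread 1.98-fold, and the log2 fold change of −0.56 had an edgeR adjusted p of 0.186. Palb2, the bridge between BRCA1 and BRCA2, had a log2 fold change of −0.42 and overlapping groups. Brip1, a helicase that binds BRCA1, had one of −0.28 without overlap, 22.3 to 23.9 CPM in the knockouts and 26.2 to 30.2 CPM in the controls. The 5 genes together summed to 103 ± 1.23 CPM in the knockouts and 172 ± 29.4 CPM in the controls (SD, n = 3 each).

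**Figure D2:**
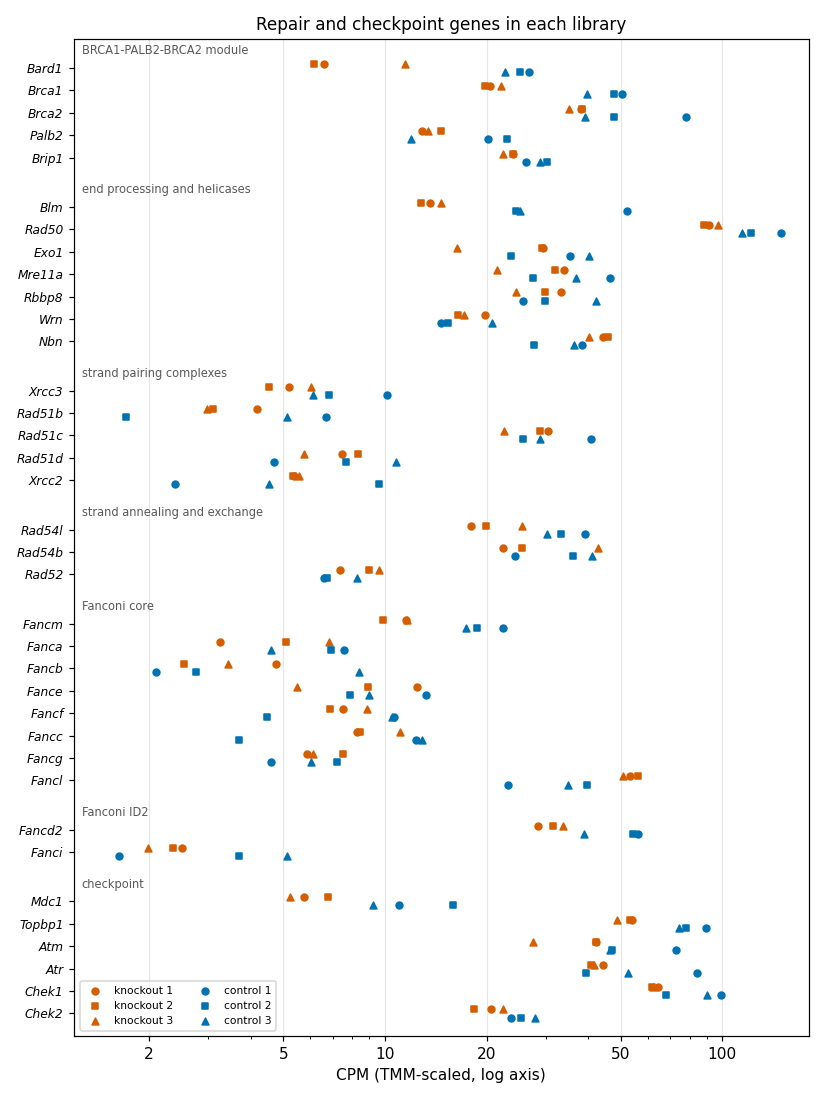
Level of each gene in each library in TMM-scaled CPM on a log axis; orange points are the knockouts, blue points the controls, and circle, square and triangle mark libraries 1, 2 and 3. Orange lies wholly below blue for 15 genes, among them Brca1, Bard1, Blm and Topbp1, and wholly above it for 2. The colours mix for most genes under 10 CPM.

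Among genes of end processing and the helicases, Blm was the single call. BLM unwinds and dissolves recombination intermediates and its loss raises sister chromatid exchange. Blm (ENSMUSG00000030528, chromosome 7, 80454733 to 80535119, minus strand) had 146, 141 and 163 reads in the knockouts and 547, 258 and 327 in the controls. All knockouts lay below all controls, and control 1 stood well above the other controls at 52.2 CPM against 24.5 and 25.1 CPM. The mean was 13.7 ± 0.946 CPM in the knockouts and 33.9 ± 15.9 CPM in the controls (SD, n = 3 each), 2.48-fold lower, with a log2 fold change of −1.31 ± 0.30 (SE) and an edgeR adjusted p of 0.0386. Without control 1 the log2 fold change was −0.86 (edgeR adjusted p 0.0425), and after removal of a trend with exon length and GC it was −1.12 with an edgeR adjusted p of 0.0508, which misses the threshold.

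Rad50, the coiled-coil ATPase of the end-binding complex, was the most abundant member per kilobase of exon at 17.2 ± 0.866 CPM per kb in the knockouts and 23.9 ± 3.42 CPM per kb in the controls (SD, n = 3 each). It had 985, 970 and 1080 reads in the knockouts and 1561, 1279 and 1492 in the controls. The groups did not overlap, but the log2 fold change of −0.48 ± 0.15 (SE) had an edgeR adjusted p of 0.0971. The other subunits gave no call either. Nbn, which recruits ATM, had 44.2, 45.7 and 40.3 CPM in the knockouts and 38.3, 27.6 and 36.3 CPM in the controls, a log2 fold change of 0.35 with an edgeR adjusted p of 0.279. Mre11a, the nuclease, had a log2 fold change of −0.34 with overlapping groups. So did the nuclease gene Exo1 (−0.41), Rbbp8 (−0.16) and the helicase gene Wrn (0.07), whose estimates had SEs of 0.23 to 0.28.

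Rad51b, Rad51c, Rad51d, Xrcc2 and Xrcc3, whose products form complexes that assist strand pairing, gave no call. Their log2 fold changes ran from −0.55 for Xrcc3 to −0.01 for Xrcc2, with SEs of 0.23 to 0.53. Xrcc3 had 5.21, 4.54 and 6.03 CPM in the knockouts and 10.1, 6.83 and 6.13 CPM in the controls, and knockout 3 and control 3 almost met. Rad51c, the most abundant of these per kilobase, had 30.4, 28.8 and 22.5 CPM in the knockouts and 40.9, 25.6 and 28.9 CPM in the controls, and the groups overlapped. Rad51b, Rad51d and Xrcc2 had log2 fold changes of −0.40, −0.11 and −0.01. Their control libraries spread 2.31-fold to 4.01-fold, and reads per library ran from 18 to 141, which limits what could be seen of them.

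Of the genes for strand annealing and exchange, Rad54l stood lower without passing. RAD54L is a motor protein that moves along DNA while the matching strand is sought. Rad54l had 193, 220 and 283 reads in the knockouts and 409, 350 and 394 reads in the controls, with no overlap, and exons of Lrrc41 on the other strand cover 15.4% of its exon bases. The log2 fold change of −0.69 ± 0.21 (SE) had an edgeR adjusted p of 0.0842, 0.0485 by DESeq2 and 0.00639 by limma-voom. Its relative Rad54b had 241, 280 and 474 reads in the knockouts and 255, 379 and 536 reads in the controls, an overlap in which the third library was the highest of each group. Rad54b shares 2068 of its 5782 exon bases with Fsbp on the same strand, so reads of both genes may be mixed. Rad52, which anneals single strands, had a log2 fold change of 0.26, −0.00218 when scaled by library size alone.

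The Fanconi core genes gave no call by edgeR, and the log2 fold changes of Fancl and Fancm had opposite signs. Fancl, the ubiquitin ligase of the pathway, had 53.1, 56.3 and 50.7 CPM in the knockouts and 23.1, 39.6 and 34.9 CPM in the controls. Each knockout library lay above each control, and control 1 was the lowest. The log2 fold change of 0.71 ± 0.21 (SE) had an edgeR adjusted p of 0.0762, and it passed by DESeq2 (0.0293) and limma-voom (0.0160). Exons of Vrk2 on the other strand cover 13.7% of its exon bases. Fancm, the translocase that brings the core complex to DNA, had 11.5, 9.89 and 11.6 CPM in the knockouts and 22.4, 18.8 and 17.4 CPM in the controls. These groups did not overlap either, with a log2 fold change of −0.82 ± 0.24 (SE) and an edgeR adjusted p of 0.0717, 0.0348 by DESeq2 and 0.0146 by limma-voom.

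The 6 other core genes lay within the spread of the libraries. Log2 fold changes were −0.33 for Fanca, −0.31 for Fancb, −0.06 for Fancc, −0.17 for Fance, −0.14 for Fancf and 0.13 for Fancg, with SEs of 0.35 to 0.58. They code for scaffold and adaptor subunits of the core complex. Their mean levels ran from 3.57 CPM (Fancb) to 9.26 CPM (Fancc) in the knockouts and from 4.40 CPM (Fancb) to 10.04 CPM (Fance) in the controls. The 8 core genes together summed to 105 ± 1.33 CPM in the knockouts and 96.9 ± 6.23 CPM in the controls (SD, n = 3 each), a sum that was not tested. Fancl alone held 53.4 CPM of this sum in the knockouts and 32.5 CPM in the controls. Of the 8 log2 fold changes 6 were below 0 (49.7% of all tested genes were).

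The transcripts for the pair of proteins that the core complex modifies were unequal in level per kilobase, with Fancd2 above Fanci. Fancd2 had 306, 346 and 374 reads in the knockouts and 589, 573 and 508 in the controls. All knockouts were below all controls, with a log2 fold change of −0.68 ± 0.19 (SE) and an edgeR adjusted p of 0.0705, 0.0319 by DESeq2 and 0.00615 by limma-voom. Fanci had the lowest level per kilobase of all members, with 27, 26 and 22 reads in the knockouts and 17, 39 and 67 in the controls. The controls spread 3.16-fold and enclosed the knockouts, and exons of Polg on the other strand cover 15.95% of its exon bases.

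All 6 checkpoint genes had a negative log2 fold change, and Topbp1 fell. TOPBP1 is the scaffold that activates ATR. Topbp1 (ENSMUSG00000032555, chromosome 9, 103305215 to 103350428, plus strand) had 579, 588 and 541 reads in the knockouts and 937, 821 and 970 in the controls. The groups were far apart relative to their spread, at 52.0 ± 2.83 CPM in the knockouts and 80.6 ± 7.92 CPM in the controls (SD, n = 3 each). This is 1.55-fold lower, with a log2 fold change of −0.63 ± 0.15 (SE) and an edgeR adjusted p of 0.0414. After removal of a trend with exon length and GC the log2 fold change was −0.43 and the call was lost (edgeR adjusted p 0.0913).

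Chek1, the effector kinase of ATR and the most abundant checkpoint gene per kilobase, had 64.4, 62.0 and 62.2 CPM in the knockouts and 99.2, 67.9 and 89.8 CPM in the controls. Control 2 came close to the knockouts, and the log2 fold change of −0.45 ± 0.17 (SE) had an edgeR adjusted p of 0.143. Atm and Atr, the kinases at the head of the checkpoint, had log2 fold changes of −0.57 and −0.47, the groups of Atr overlapping, and Chek2, the effector kinase of ATM, one of −0.32. Mdc1, the adaptor that binds phosphorylated histone H2AX at breaks, had 62, 75 and 58 reads in the knockouts and 115, 168 and 120 reads in the controls. Its groups did not overlap, and a log2 fold change of −1.02 ± 0.32 (SE) came with an edgeR adjusted p of 0.0922, 0.0541 by DESeq2 and 0.0154 by limma-voom.

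**Figure D3:**
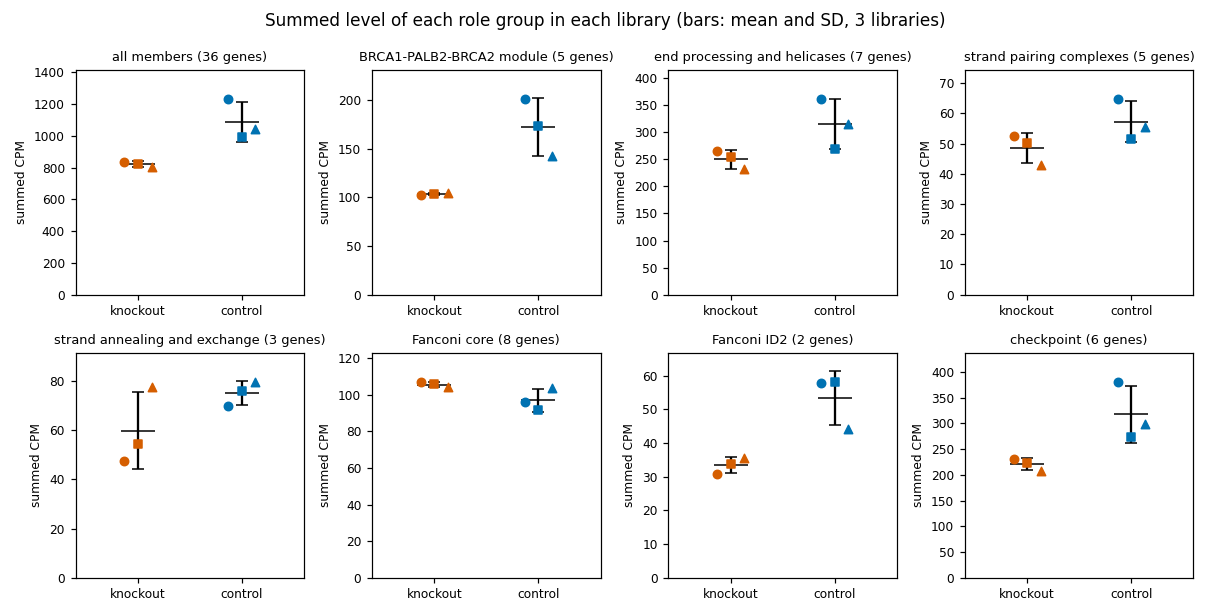
Summed TMM-scaled CPM of all members and of each role group in the 3 knockout (orange) and 3 control (blue) libraries, with the mean and SD in black; circle, square and triangle mark libraries 1, 2 and 3. The BRCA1 group sums to 103 CPM in knockouts and 172 CPM in controls, whereas the Fanconi core sums to 105 and 96.9 CPM. Fancl alone holds 53.4 CPM of the Fanconi core sum in knockouts and 32.5 CPM in controls.

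Across the 36 genes, the groups did not overlap in 17, beside 32.6% of all tested genes. Knockouts lay below controls in 15 (41.7%, against 15.8% of all tested genes) and above them in Nbn and Fancl (5.56%, against 16.8%). Over all tested genes the share with knockouts below controls rose with the control level. Of the 17 members with a control mean of at least 30 CPM, 9 had all knockouts below all controls, beside 29.1% of all genes at that level. Of the 8 members at 10 to 30 CPM, 5 did (62.5%, beside 18.3% of genes at that level). Of the 11 members under 10 CPM, 1 did (Xrcc3), beside 6.03% of genes at that level, and their median SE was 0.41, against 0.23 for the members at 30 CPM and over. Of the members at 30 CPM and over 3 were called lower (17.6%, beside 7.89% of genes at that level).

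Together the members summed to 837, 824 and 804 CPM in the knockouts and 1232, 994 and 1041 CPM in the controls. Knockouts were close to each other and below every control. As a share of counted reads without TMM scaling, they made up 0.0715% to 0.0772% in the knockouts and 0.0949% to 0.153% in the controls. The controls were less alike than the knockouts, of which 1 and 2 were the nearly alike pair. The median coefficient of variation was 13.1% over the knockouts and 25.8% over the controls, as over all tested genes (16.1% and 29.4%). Control 1 was the highest control for 20 members (55.6%, against 37.7% of all tested genes), and its median log2 ratio to the control mean was 0.16, against −0.09 for control 2 and −0.06 for control 3. For knockouts 1, 2 and 3 the same median was −0.35, −0.40 and −0.44.

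In these bulk libraries fewer cells of a type and less RNA per cell cannot be told apart. Other gene lists moved alongside the members. Genes of DNA replication summed to 3455 to 3624 CPM in the knockouts and 4486 to 4693 CPM in the controls, and mitosis genes to 1963 to 2469 CPM in the knockouts and 3241 to 3420 CPM in the controls. By edgeR 10 of 34 tested replication genes and 13 of 24 mitosis genes were called lower, beside 2.8% of all tested genes. Markers of fibroblasts and stroma summed to 1518 to 1662 CPM in the knockouts and 724 to 1079 CPM in the controls, and markers of peritubular myoid cells and smooth muscle to 163 to 233 CPM in the knockouts and 64.5 to 80.7 CPM in the controls. T lymphocyte markers summed to 48.4 to 70.2 CPM in the knockouts and 26.4 to 30.5 CPM in the controls. Sums of Sertoli, Leydig and macrophage markers overlapped between the groups. Endothelial markers summed to 42.7 to 54.3 CPM in the knockouts and 32.1 to 39.7 CPM in the controls. No marker was at 0 in all libraries of a group. Single markers did not all follow the sums. All knockouts lay above all controls in 3 of 6 stroma and 3 of 5 tested myoid markers. The same held for 3 of 7 T lymphocyte and 2 of 6 endothelial markers, beside 16.8% of all tested genes. It also held for 1 of 6 tested Sertoli, 1 of 6 Leydig and 2 of 7 macrophage markers. Cldn11, a Sertoli marker, had 30 to 54 reads in the knockouts and 2 to 6 in the controls. Rhox5, also in the Sertoli sum, had 168, 0 and 136 reads in the knockouts and 120 to 148 in the controls. Acta2 made up most of the myoid sum, and Pdgfra, Col1a1, Trac and Cd8a overlapped. The 15 germ cell markers summed to 5250 to 5741 CPM in the knockouts and 4514 to 5533 CPM in the controls, and 5 of them fell and 1 rose. Most of that sum is Dazl, and 11 of the 15 log2 fold changes were below 0, with a median of −0.56. Zbtb16, a marker of undifferentiated spermatogonia, had 221, 198 and 205 reads in the knockouts and 647, 352 and 329 in the controls. Kit had 147 to 194 reads in the knockouts and 298 to 439 in the controls, and Stra8 513 to 523 and 1057 to 1373. Of the 15 markers 9 had all knockouts below all controls, beside 15.8% of all tested genes. Ddx4 and Mael had all knockouts above all controls, and Thy1, Lin28a, Uchl1 and Dazl overlapped. Mitochondrially encoded transcripts took 19.8% to 20.1% of reads in the knockouts and 14.0% to 16.9% in the controls. The part of these differences in the lower repair genes was not tested.

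Other genes of the same pathways were also called. Of 61 genes listed, 60 were in the table and 58 were tested. Of the 58, 5 fell, 1 rose and 52 did not pass, beside 2.8% of all tested genes called lower and 2.03% called higher. The median log2 fold change was −0.33, and 42 values were below 0 (49.7% of all tested genes were). Wee1, the kinase that holds CDK1 in check, had a log2 fold change of −0.96, at 56.6 ± 5.97 CPM in the knockouts and 110 ± 24.9 CPM in the controls (SD, n = 3 each). Rif1, which limits end resection, had one of −0.84, Uimc1, which brings BRCA1 to ubiquitin at breaks, −0.73, Clspn, which links ATR to CHEK1, −0.63, and Rfwd3, a ubiquitin ligase of crosslink repair, −0.60. Adjusted p of these 5 by edgeR ran from 0.0255 to 0.0451.

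The gene that rose was H2afx, which codes for histone H2AX, the substrate of ATM and ATR at breaks and the partner of MDC1. It had 247, 275 and 311 reads in the knockouts and 86, 93 and 103 reads in the controls. The groups were far apart, at 25.3 ± 2.54 CPM in the knockouts and 8.31 ± 0.474 CPM in the controls (SD, n = 3 each), with a log2 fold change of 1.61 ± 0.23 (SE) and an edgeR adjusted p of 0.0119. An annotated gene on the other strand, Gm44335, overlaps its exons, and without strand the reads of both cannot be told apart. None of the 6 calls was kept by edgeR with knockout 1 and 2 entered as 1 library.

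**Figure D4:**
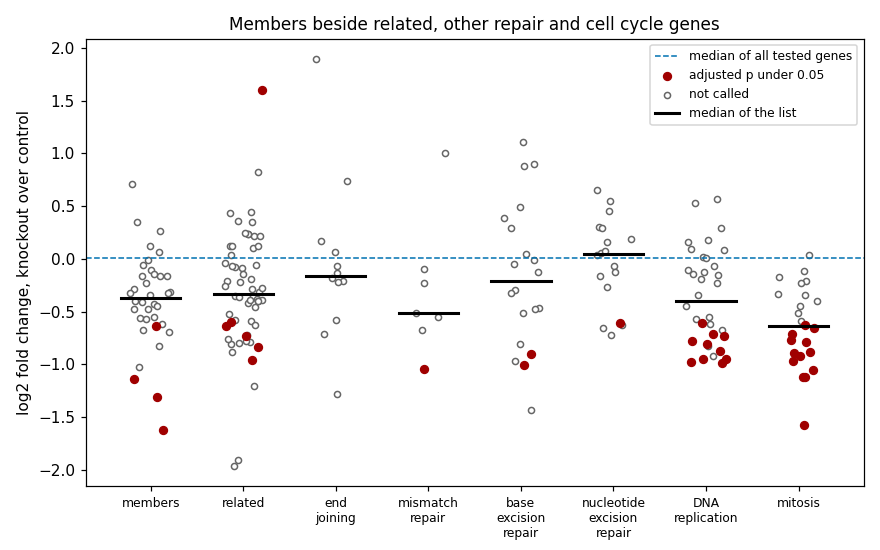
Log2 fold change of knockout over control for each tested gene of the 36 members, of related genes and of lists of other repair pathways, DNA replication and mitosis; filled points have an edgeR adjusted p under 0.05, black bars are list medians and the dashed line is the median of all tested genes. Medians run from −0.64 for mitosis to 0.05 for nucleotide excision repair, with the members at −0.37.

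The sequence before the RefSeq start site of the 4 called genes is shown, as that of the members that fell. Each is the 250 bases before that site on GRCm38.p6, read 5′ to 3′ on the strand of the gene. For Bard1, Blm and Topbp1 this site lies inside the GENCODE coordinates given above, so part of the region does too. Capitals mark matches on either strand to E2F words (TTTCCCGC, TTTCGCGC, TTTGCCGC or TTTGGCGC), to the CCAAT box (CCAAT) and to the cell cycle homology region or CHR (TTTGAA or TTCGAA), motifs known from promoters of cell cycle genes. The regions are chr11:101551956-101552205 for Brca1, chr1:71102973-71103222 for Bard1, chr7:80534999-80535248 for Blm, all on the minus strand, and chr9:103305077-103305326 on the plus strand for Topbp1.
Brca1: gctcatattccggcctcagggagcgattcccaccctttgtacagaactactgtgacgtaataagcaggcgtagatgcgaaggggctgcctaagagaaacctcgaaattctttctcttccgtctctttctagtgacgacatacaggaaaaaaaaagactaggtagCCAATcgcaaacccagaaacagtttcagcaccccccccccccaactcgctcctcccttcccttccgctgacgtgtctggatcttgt
Bard1: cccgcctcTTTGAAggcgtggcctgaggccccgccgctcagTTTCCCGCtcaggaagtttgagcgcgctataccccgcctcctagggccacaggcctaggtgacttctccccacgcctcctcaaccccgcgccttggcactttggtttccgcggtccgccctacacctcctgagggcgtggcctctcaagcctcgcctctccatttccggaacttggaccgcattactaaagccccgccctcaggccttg
Blm: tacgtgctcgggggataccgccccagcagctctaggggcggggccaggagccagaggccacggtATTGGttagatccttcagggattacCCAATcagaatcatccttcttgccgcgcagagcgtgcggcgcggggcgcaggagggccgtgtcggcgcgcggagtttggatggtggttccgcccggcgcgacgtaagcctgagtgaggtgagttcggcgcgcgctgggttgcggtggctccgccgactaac
Topbp1: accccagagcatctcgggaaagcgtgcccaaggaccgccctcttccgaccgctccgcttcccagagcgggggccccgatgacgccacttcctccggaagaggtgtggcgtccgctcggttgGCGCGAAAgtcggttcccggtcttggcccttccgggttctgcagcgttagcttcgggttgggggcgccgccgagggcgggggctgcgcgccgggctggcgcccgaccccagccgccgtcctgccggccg

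The 4 regions do not hold the same motif. Positions are counted from the RefSeq start site to the first base of the match. Bard1 has an E2F word at −209 and a CHR at −242, and Topbp1 has an E2F word on the other strand at −129. Brca1 has a CCAAT box at −86, and Blm has one at −161 and another on the other strand at −186. RefSeq promoters, here from 250 bases before to 50 after the start, were at hand for 27 of the 36 members. An E2F word was found in 7 of these (25.9%: Brca2, Bard1, Rad51c, Fancg, Chek2, Mdc1 and Topbp1), against 2.6% of 27025 genes with a promoter. A CCAAT box was found in 17 (63%, against 41.1%) and a CHR in 3 (11.1%, against 21.7%). The 7 genes with an E2F word had log2 fold changes with a median of −0.56, the 20 without one a median of −0.41, and each set held 2 of the called genes. A match is a description of letters and not a mapped binding site.

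**Figure D5:**
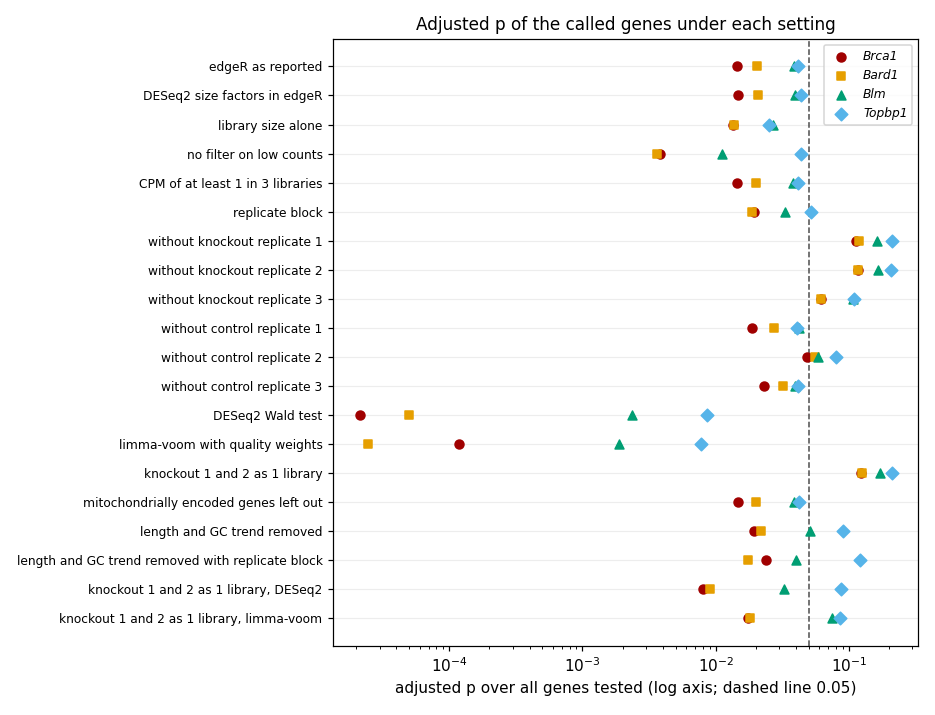
Adjusted p over all genes tested, on a log axis, for Brca1, Bard1, Blm and Topbp1 under each setting, with the dashed line at 0.05. All 4 lie right of the line by edgeR when any knockout library is left out or knockout 1 and 2 are entered as 1, and left of it by DESeq2 and limma-voom on all 6 libraries.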

How the data were processed

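RNA of 3 knockout and 3 control libraries was reverse transcribed with an oligo-dT primer, amplified by SMART-seq2 and read from both ends (150 bp), per the labels' protocols. The authors deposited raw counts per Ensembl gene. Per the submitters' processing notes, STAR 2.7.5c, Trimmomatic 0.39, edgeR, StringTie 2.1.7 and DESeq2 were used with build mm10, in roles they do not state. Counter, annotation, strand setting and filter were not given in the sources used here. SMART-seq2 adds no molecular identifiers, so reads are not independent molecules.

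Symbols, positions and exon lengths came from GENCODE M21 (22562 of 22579 identifiers matched), and promoters from RefSeq on GRCm38.p6. The main test was edgeR 4.0.16 in R 4.3.3: robust quasi-likelihood F test, TMM scaling, filterByExpr, genotype as the sole term, and Benjamini-Hochberg adjustment over 14766 genes, two-sided. SEs were derived as |log2 fold change|/√F. CPM per kb divides by the length of all annotated exons. Alternatives used other scalings, filters, DESeq2 1.42.0, limma-voom (limma 3.58.1), a replicate block, each library left out, knockout 1 and 2 as 1 library (rounded mean) and a lowess trend with length and GC content (span 0.3) removed. Tests were tried on simulated data. Members and lists were chosen with earlier results of these data known. Named were all called members and, per role, those with the smallest p and the highest control level per kb, plus called genes of the other lists. Other members are given by fold change. Same-numbered libraries did not deviate together (correlations of −0.00423, 0.00884 and 0.00648), so the numbers were not used as pairs.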

Additional observations from a re-analysis of the deposited data

How the results depend on the processing

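The members' median log2 fold change stayed negative under all alternatives, at −0.65 to −0.24. Scaling by library size alone shifted the median of all genes from 0.01 to −0.26 and gave −0.65 for the members, with 9 members, 10 related, 9 other repair and 1152 of all genes lower, 226 higher. Lower calls were then 83.6% of all calls, against 57.9% with TMM. The count by edgeR, 413 lower and 300 higher with 4 members, 5 related and 4 other repair genes lower and 1 related gene higher, became 847 and 794 by DESeq2 (7 members, 10 related and 8 other repair genes lower; 1, 2 and 1 higher). By limma-voom it was 1675 and 1090 (9, 14 and 12 lower; 1, 3 and 1 higher). With knockout 1 and 2 as 1 library edgeR called 0 genes lower and 1 higher (2150 with an unadjusted p under 0.05), and 0 in each repair list. In that setting, by choices made after seeing the data, DESeq2 called 259 lower (members 3, related 2, other 2) and limma-voom 198 (2, 2 and 2). After removal of the length and GC trend 2 members and 3 related genes were lower, also 3 related genes with the block added, where Blm passed (adjusted p 0.0401, log2 fold change −1.05).

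Leaving out 1 library gave 1 to 468 lower and 2 to 414 higher genes, 0 to 5 members lower, 0 to 7 related lower and 0 to 2 higher, 0 to 7 other repair genes lower and 0 to 1 higher, and a member median of −0.50 to −0.29. With the replicate block 3 members, 3 related and 3 other repair genes were lower and 1 other repair gene higher. With the block Topbp1 had an adjusted p of 0.0518 and a log2 fold change of −0.63, as without it, and the numbers share no sign of pairing.

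None of the members whose sign turned was called. Under library size scaling Rad52, Wrn and Fancg had −0.00218, −0.19 and −0.11. Under limma-voom Rad51b, Rad51c, Fancc, Fance and Fancf had 0.21, 0.030, 0.34, 0.19 and 0.10. With the trend removed Rbbp8, Xrcc2 and Fancc had 0.044, 0.076 and 0.10, and 0.079, 0.29 and 0.25 with the block added. The block alone gave Xrcc2 0.19 and Fancc 0.10. With the pair as 1 library Fancc had 0.015 (edgeR) and 0.012 (DESeq2), and limma-voom gave Rad51b, Fancc and Fancf 0.087, 0.49 and 0.22. Leaving out 1 library gave −0.31 to 0.070 for Rbbp8, −0.37 to 0.21 for Rad51d, −0.37 to 0.66 for Xrcc2, −0.50 to 0.014 for Rad54b, −0.026 to 0.24 for Wrn, −0.65 to 0.55 for Fancb, −0.43 to 0.21 for Fancc, −0.47 to 0.086 for Fance, −0.43 to 0.042 for Fancf and −0.030 to 0.30 for Fancg. The causes were not tested. The 11 members with a control mean under 10 CPM had a median SE of 0.41.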

Other observations

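Other DNA repair pathways held 4 further lower genes and no higher one among 57 tested (median log2 fold change −0.13). Of all tested genes 2.8% were called lower and 2.03% higher. Msh6, a mismatch recognition protein gene, had 81.2, 82.8 and 101 CPM in the knockouts and 200, 171 and 175 CPM in the controls, with a difference of −1.04 ± 0.16 (SE) on the log2 scale (edgeR adjusted p 0.0119). Exons of Fbxo11 on the other strand overlap it. Parp1, which senses strand breaks, stood at 189 ± 4.88 CPM in the knockouts and 379 ± 88.5 CPM in the controls (SD, n = 3 each, edgeR adjusted p 0.0233). Ung, which removes uracil from DNA, had a log2 fold change of −0.90, and Ercc3, a helicase of nucleotide excision repair, one of −0.61.

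The 7 mismatch repair genes summed to 214 to 233 CPM in the knockouts and 338 to 374 CPM in the controls, with 6 of 7 log2 fold changes below 0. The 12 end joining genes gave no call by edgeR, with sums of 212 to 215 CPM in the knockouts and 204 to 259 CPM in the controls. The 19 nucleotide excision repair genes summed to 801 to 854 CPM in the knockouts and 785 to 905 CPM in the controls.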
